A study of Mus musculus with 3 samples.

Results

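Of the 16856 Foxp4 peaks on chromosomes 1 to 19, 1611 (9.56%, exact 95% interval 9.12 to 10.0%) had their centre in a long terminal repeat (LTR) retrotransposon, and these 1611 regions are described here. A peak was a member where the deposited annotation gave LTR as the repeat class of the element at the peak centre. Chromatin immunoprecipitation with sequencing was carried out on mouse beige adipocytes, the thermogenic fat cells that arise in white fat. They were grown in culture from the stromal vascular fraction of the inguinal depot, from C57BL/6 mice whose sex and age the labels do not give. The study had a Foxp4 library, an H3K27ac library and an input DNA library, 1 of each, and the input was not used here. All 3 came from cells induced for 48 h in medium with 10% serum and insulin at 5 µg/ml, isobutylmethylxanthine at 0.5 mM, dexamethasone at 1 µM, T3 at 50 nM and troglitazone at 5 µM. A further 6 days in growth medium with insulin, T3 and troglitazone followed. Foxp4 is a forkhead transcription factor, and H3K27ac is an acetylated histone H3 lysine found at active promoters and enhancers. The labels name a Foxp4 antibody for every library and none for H3K27ac. The files hold peak positions and no signal at marker genes of beige fat, so the labelled cell type was not checked from expression. With 1 library of each kind there is no replicate, peaks of a list are not replicates of a condition, and no test was made. The intervals cover counting error only, and sequencing depth is unknown.

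LTR retrotransposons are relics of retroviral insertions. An intact copy has a terminal repeat at each end, which holds the promoter and the polyadenylation signal of the element, and an internal part with the genes for its proteins. Recombination between the ends leaves a solitary terminal repeat, the most common form in the genome. In the mouse the main families are ERV1, ERVK, ERVL and ERVL-MaLR. ERVK holds the intracisternal A particles (IAP), some of which still move, and ERVL-MaLR holds the nonautonomous MT, ORR1 and MLT1 elements. Terminal repeats are known to serve as promoters or enhancers of genes in some cell types, and many copies are silenced by DNA and histone methylation.

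Sequence under an LTR peak was at hand where the peak met a 300-base window around a RefSeq gene start (250 bases before and 50 after it, GRCm38.p6, the assembly behind mm10). This was so for 5 of the 1611 peaks, all at starts of long noncoding RNA genes. The annotation puts peaks centred at promoters of its own gene set in the promoter class. The starts met were therefore largely limited to those outside that set. Of the 5 windows, 4 held the peak centre. These 4 are printed on the strand of the noncoding gene, to show what the called sequence looks like. Capitals mark a forkhead core, spelled TGTTTAC or, in a variant form, TATTTAC, on either strand.
Gm35202: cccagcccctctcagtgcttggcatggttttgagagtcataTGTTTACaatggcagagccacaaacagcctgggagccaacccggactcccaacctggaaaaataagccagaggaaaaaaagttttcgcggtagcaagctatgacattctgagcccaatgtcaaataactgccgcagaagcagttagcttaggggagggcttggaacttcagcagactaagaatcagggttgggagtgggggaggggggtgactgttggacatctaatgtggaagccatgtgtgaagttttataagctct
Gm35750: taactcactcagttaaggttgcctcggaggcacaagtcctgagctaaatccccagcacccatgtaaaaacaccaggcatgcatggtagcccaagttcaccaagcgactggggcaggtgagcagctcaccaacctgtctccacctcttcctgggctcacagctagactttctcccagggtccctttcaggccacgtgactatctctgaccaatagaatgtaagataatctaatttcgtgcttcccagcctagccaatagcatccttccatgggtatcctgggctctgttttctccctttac
Gm34333: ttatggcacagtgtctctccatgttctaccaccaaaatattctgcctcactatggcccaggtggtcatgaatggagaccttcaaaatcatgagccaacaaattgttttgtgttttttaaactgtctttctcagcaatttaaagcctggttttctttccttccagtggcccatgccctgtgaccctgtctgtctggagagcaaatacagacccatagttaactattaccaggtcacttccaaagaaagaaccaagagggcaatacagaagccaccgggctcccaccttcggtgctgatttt
Gm34965: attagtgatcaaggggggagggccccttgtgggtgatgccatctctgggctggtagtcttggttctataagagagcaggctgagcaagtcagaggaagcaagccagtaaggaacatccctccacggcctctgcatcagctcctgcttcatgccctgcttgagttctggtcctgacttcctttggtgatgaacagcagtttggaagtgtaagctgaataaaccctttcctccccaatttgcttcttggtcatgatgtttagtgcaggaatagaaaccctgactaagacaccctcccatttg

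The window of Gm35202 (chr2:35503274-35503573, plus strand) held an MLT1J1 peak of score 25 over its bases 1 to 204. It was the only one of the 5 with a forkhead core, which was TGTTTAC on bases 42 to 48, inside the peak. Bases are counted from 1 at the 5′ end of each printed window. The window of Gm35750 (chr2:163356084-163356383, plus strand) held an MLT1J1 peak of score 27 over bases 26 to 300. Gm34333 (chr5:146600084-146600383, minus strand) held an MLT1A1 peak of score 27 over bases 1 to 201. Gm34965 (chr15:86604679-86604978, plus strand) lay whole inside an MTA_Mm peak of score 27. The fifth window, at Gm52631 on chromosome 3, shared 59 bases with an MLT2B2 peak of score 27 whose centre lay outside it. The centres of these 5 peaks lay 61 to 221 bp from the RefSeq starts. The deposited annotation names none of these 5 genes for them and gives other genes, at 15100 to 327193 bp. None of these 5 peaks overlapped an H3K27ac peak, and the nearest H3K27ac peak lay between 40536 and 125439 bp away. Over the 31396 windows of chromosomes 1 to 19, 6.64% held either forkhead form, and among the 935 windows met by any Foxp4 peak 6.52% did (interval 5.03 to 8.30%). The reverse complements were searched too, matches could overlap, and a window with several matches counted once.

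The letters CCAAT, bound by a common promoter factor, were found on either strand in 37.3% of all windows. The window of Gm35750 held them at bases 208 to 212 and 252 to 256, and Gm35202 and Gm34965 once each.

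The letters AATAAA, a polyadenylation signal, lay at bases 215 to 220 of the Gm34965 window, under the MTA_Mm peak, and on either strand in 19.6% of all windows. All these matches describe letters and no binding.

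LTR elements held fewer peaks than their length in the genome would give, less so in the Foxp4 list. In the authors' deposited table, which covers all chromosomes, the log2 of observed over expected LTR peaks was -0.263 for Foxp4 and -1.547 for H3K27ac. The authors' deposited table counts 1623 Foxp4 and 691 H3K27ac peaks on 313 Mb of LTR sequence, or 5.19 and 2.21 peaks per Mb. For LINE (long interspersed) elements the authors' deposited table had -0.769 for Foxp4 and -2.644 for H3K27ac, and for SINE (short interspersed) elements -0.033 and -0.219. On chromosomes 1 to 19 the LTR share of the Foxp4 list was 9.56%, against 3.93% for the H3K27ac list (685 of 17450, interval 3.64 to 4.22%). How reads that fit several near-identical copies were handled is not given in the sources used here, and its part in these counts was not tested.

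The peaks were spread over many kinds of element. ERVL-MaLR held 730 of the 1611 (45.3%, interval 42.9 to 47.8%), ERVK 506 (31.4%), ERVL 218 (13.5%) and ERV1 150 (9.31%), and the other 7 had a Gypsy or uncertain label. In the H3K27ac list the 685 LTR peaks fell into these families in shares of 46.4%, 30.9%, 11.4% and 10.9%. The intervals of both lists overlapped for all 4 families. In all 364 repeat names occurred, 147 of them with a single Foxp4 peak, and the 38 names with at least 10 peaks held 808 peaks (50.2%). Of the 364 names, 197 (54.1%) also had an H3K27ac peak, which is 82.8% of the 238 names of the H3K27ac list.

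Internal parts of elements held 429 LTR Foxp4 peaks (26.6%, interval 24.5 to 28.9%), and terminal repeats the other 1182. In the H3K27ac list 134 of 685 LTR peaks (19.6%, interval 16.7 to 22.7%) lay in internal parts. Within the Foxp4 list the internal share was 41.3% in ERV1 (interval 33.4 to 49.7%), 36.6% in ERVK (32.4 to 40.9%), 28.4% in ERVL (22.6 to 34.9%) and 16.4% in ERVL-MaLR (13.8 to 19.3%). Of the 106 Foxp4 peaks in IAP elements 93 lay in internal parts, against 21 of 218 in RMER and 21 of 204 in RLTR elements. MuLV and VL30 elements, relatives of murine leukaemia virus, had 26 of 30 in internal parts, and MERVL with its MT2 terminal repeats had 39 of 84. In the H3K27ac list 24 of 29 IAP peaks lay in internal parts, against 7 of 102 in RMER and 11 of 94 in RLTR elements. The group and the part were both read from the repeat name, and the share of naming in these contrasts was not tested.

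**Figure D1:**
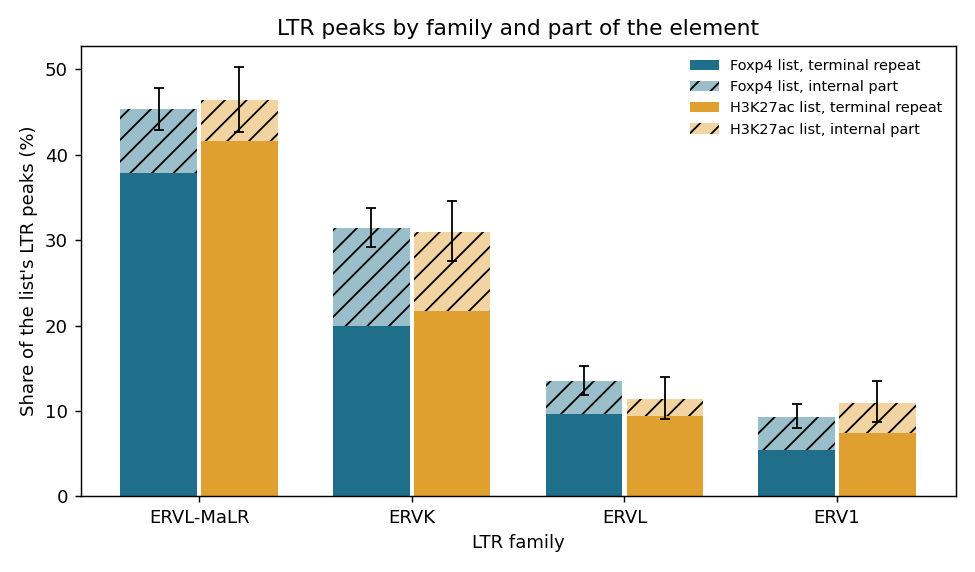
Share of each list's LTR peaks by family (y axis, percent), for 1611 Foxp4 and 685 H3K27ac peaks on chromosomes 1 to 19. Hatched parts are internal parts of elements, plain parts terminal repeats, and bars are exact 95% intervals of the family share. ERVL-MaLR held the largest share of both lists, 45.3% of Foxp4 and 46.4% of H3K27ac LTR peaks.

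The name with the most Foxp4 peaks was IAPEz-int, the internal part of the most common IAP element. It had 76 Foxp4 peaks (4.72% of LTR peaks, interval 3.73 to 5.87%), with scores from 21 to 57 and a median of 27, and 20 H3K27ac peaks (2.92%, interval 1.79 to 4.47%). Of the 76, 1 overlapped H3K27ac and 20 lay in introns. The other leading ERVK names were RMER19B with 25 peaks and RMER6A with 15, of which 2 overlapped H3K27ac.

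MTD, MTC and MTA_Mm led ERVL-MaLR with 69, 45 and 36 Foxp4 peaks, or 4.28%, 2.79% and 2.23% of the LTR peaks. In the H3K27ac list they had 38, 26 and 16 peaks, or 5.55%, 3.80% and 2.34%. The MTA_Mm peaks had a median score of 32 and reached 52, while the MTD peaks had a median of 27 and reached 41. In ERVL, RMER15 had 33 Foxp4 peaks, MERVL-int 26 and MERVL_2A-int 13. MERVL is the element known for its transcription in early mouse embryos, and MERVL-int had 6 H3K27ac peaks; no Foxp4 peak in MERVL-int overlapped one. In ERV1, RLTR6-int had 14 Foxp4 and 2 H3K27ac peaks, MLTR14 had 11 and 8, and RMER5 had 10 and 9. MMVL30-int, chosen after its values were seen, had fewer Foxp4 than H3K27ac peaks, 5 and 11.

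The ORR1 and MT subfamilies carry letters that run from the younger A forms to older ones. This breakdown by letter was added after the values were seen. ORR1 elements held 273 Foxp4 and 98 H3K27ac peaks. ORR1A made up 30.8% of the Foxp4 ORR1 peaks (interval 25.3 to 36.6%) and 22.4% of the H3K27ac ones (14.6 to 32.0%), and ORR1D 19.4% (14.9 to 24.6%) and 9.18% (4.29 to 16.7%). ORR1E and ORR1F made up 11.4% and 11.0% in the Foxp4 list, against 19.4% and 20.4% in the H3K27ac list. For each of these letters the intervals of both lists overlapped. The 315 Foxp4 and 157 H3K27ac peaks in MT elements had shares in the same order, with MTE at 34.6% in the Foxp4 list and 37.6% in the H3K27ac list, MTD at 24.4% and 26.1%, and MTB lowest at 9.52% and 6.37%.

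**Figure D2:**
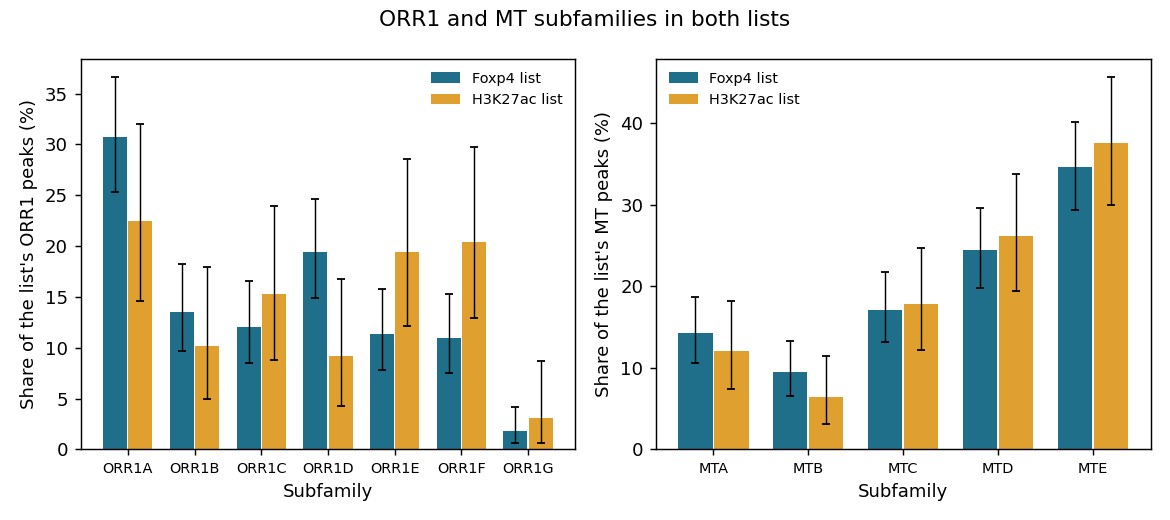
Share of each list's ORR1 peaks (left) and MT peaks (right) by subfamily letter, in percent, for the Foxp4 and H3K27ac lists, with exact 95% intervals. ORR1A held 30.8% of the Foxp4 ORR1 peaks and 22.4% of the H3K27ac ones, and ORR1F held 11.0% and 20.4%, with overlapping intervals.

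Few LTR peaks met an H3K27ac peak. Overlap with an H3K27ac peak, by 1 bp or more, was found for 36 of the 1611 (2.23%, interval 1.57 to 3.08%). Over all Foxp4 peaks on these chromosomes the share was 8.24%. Because the annotation ranks promoters, exons and transcript ends above repeats, every LTR peak was intronic or intergenic by construction, and over all intron and intergenic Foxp4 peaks the share was 5.58%. It was 0.867% for the 1961 LINE peaks (interval 0.506 to 1.38%), 3.44% for the 1193 SINE peaks (2.48 to 4.63%) and 6.69% for the 9420 intron and intergenic peaks outside repeats and CpG islands (6.19 to 7.21%). The LTR interval met that of SINE peaks and lay apart from the other intervals. Median widths were 344 bp for LTR, 346 bp for LINE, 352 bp for SINE and 353 bp for the peaks outside repeats. Among intron peaks 3.18% of the 503 LTR peaks overlapped (interval 1.83 to 5.11%), against 7.69% of those outside repeats (6.97 to 8.45%). Among intergenic peaks 1.81% of the 1108 LTR peaks did (1.11 to 2.77%), against 5.50% of those outside repeats (4.84 to 6.22%).

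Nearness gave the same order of LTR, LINE and SINE peaks. An H3K27ac peak lay within 5 kb of 186 LTR peaks (11.5%, interval 10.0 to 13.2%), against 20.4% of all Foxp4 peaks, 5.46% of LINE, 18.9% of SINE and 18.7% of peaks outside repeats. The median distance to the nearest H3K27ac peak was 57893 bp from LTR peaks, 112152 bp from LINE peaks, 28080 bp from SINE peaks and 39040 bp from peaks outside repeats.

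**Figure D3:**
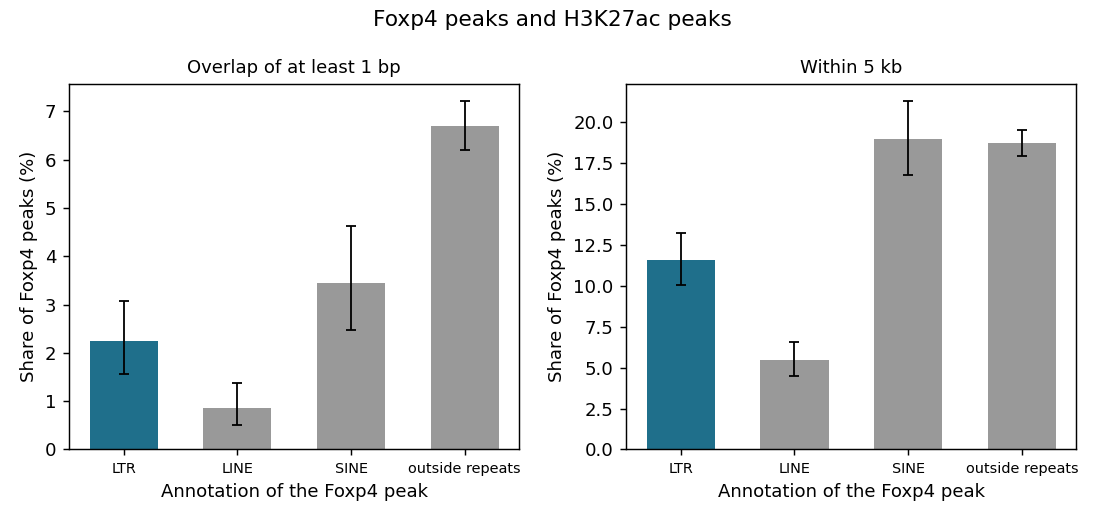
Share of Foxp4 peaks (percent) that overlap an H3K27ac peak (left) or lie within 5 kb of one (right), by annotation of the Foxp4 peak, with exact 95% intervals; peaks outside repeats are intron and intergenic ones. LTR peaks stood at 2.23% and 11.5%, above LINE peaks at 0.867% and 5.46%.

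By family, the overlap share was 3.33% in ERV1 (5 peaks, interval 1.09 to 7.61%), 2.37% in ERVK (12 peaks, 1.23 to 4.11%), 2.29% in ERVL (5 peaks, 0.749 to 5.27%) and 1.92% in ERVL-MaLR (14 peaks, 1.05 to 3.20%), with overlapping intervals. Of internal parts 1.63% overlapped (interval 0.658 to 3.33%), and of terminal repeats 2.45% (1.65 to 3.50%). RMER elements gave 10 of the 36 overlapping peaks, or 4.59% of the 218 RMER peaks (interval 2.22 to 8.27%). MT gave 6 (1.90%), RLTR 5 (2.45%), ORR1 4 (1.47%) and MLT1 4 (2.86%). IAP gave 1 (0.943%, interval 0.0239 to 5.14%), and MERVL with MT2 gave 1 (1.19%, 0.0301 to 6.46%). The intervals of these groups overlapped, and each held the 2.23% of all LTR peaks. Within MT and ORR1, in a grouping made after the values were seen, 0 of the 229 peaks in ORR1A to ORR1C, MTA and MTB overlapped, which by a limit of 3 counts allows a share of up to 1.31%, and by the exact 95% interval up to 1.60%. Of the 359 peaks in ORR1D to ORR1G and MTC to MTE, 10 did (2.79%, interval 1.34 to 5.06%), and of the 140 in MLT1, which placental mammals share, 4 did (2.86%, interval 0.784 to 7.15%). Every letter of the first group had 0 overlaps, and the grouping was made with these counts known. MTD, with 0 of 77, and ORR1G, with 0 of 5, fell in the second group. The exact intervals of these groupings overlapped, so no trend with age is read from them.

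In 18 of the 36 overlaps the H3K27ac peak was itself centred in an element of the same name, in 1 more it was centred in another LTR element, and in 13 it was centred outside repeats. The rest fell in none of these groups. An overlapping partner lies close to the LTR peak, so the overlap rule itself favours a shared name. The shared stretch had a median of 319 bp and ran from 2 to 607 bp, and 5 Foxp4 peaks lay whole inside the H3K27ac peak. The H3K27ac partners had a median score of 38 and a median width of 523 bp, against 40 and 530 bp in the whole H3K27ac list of these chromosomes.

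The highest-scoring overlap was an RLTR33 terminal repeat at chromosome 2, 181930331 to 181930951, 60585 bp upstream of Gm14496, with a Foxp4 score of 88 and an H3K27ac peak of score 26 over 440 bp. An RLTR17B_Mm element in intron 1 of Mbp, the myelin basic protein gene, followed with a Foxp4 score of 58 and an H3K27ac score of 33 over 607 bp (chromosome 18, 82487819 to 82488482). At Bmpr1a, a receptor of bone morphogenetic proteins, an RLTR31B2 element in intron 5 had scores of 55 for Foxp4 and 30 for H3K27ac (chromosome 14, 34440503 to 34441255). Both peaks were centred in RLTR31B2. An MTEb element 3508 bp upstream of Baalc had scores of 52 and 31 (chromosome 15, 38930217 to 38930586).

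Further overlaps among the 15 with the highest Foxp4 scores follow, each with its listed gene. An RMER2 element 247983 bp upstream of Thrb, the thyroid hormone receptor beta gene, had a Foxp4 score of 49 and shared 82 bp with an H3K27ac peak of score 37. An LTR48B element in intron 2 of Tgfbr3, which encodes the coreceptor betaglycan, had a Foxp4 score of 41 and shared 104 bp with an H3K27ac peak of score 30. Mgll, encoding the monoglyceride lipase that ends the breakdown of stored fat, had an RMER15 peak of score 38 in intron 2 (chromosome 6, 88746611 to 88747228), which shared 333 bp with an H3K27ac peak of score 31. Downstream of the start of Col3a1, a fibrillar collagen gene, an RMER15-int peak of score 35 lay whole in an H3K27ac peak of score 45, 43705 bp from the start. A peak in an ORR1E element 10764 bp upstream of Sept8, a septin gene, had a Foxp4 score of 41 and also lay whole in its H3K27ac peak, of score 39.

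Dapk1, a death-associated kinase gene, had an ORR1E peak of score 41 in intron 2 with an H3K27ac peak of score 82 centred in an MTD element. Pde3a, a cyclic nucleotide phosphodiesterase gene, had an MTEa peak of score 41, 72909 bp upstream, with an H3K27ac score of 30. An RMER6A peak of score 41 lay in intron 45 of the ubiquitin ligase gene Ubr2 and shared 51 bp with an H3K27ac peak; the nearest start was that of Prph2. An ORR1F peak of score 35 in intron 1 of Ergic1 lay whole in an H3K27ac peak of score 48. Sec61g, a subunit of the protein translocon, was the nearest gene of an MTC-int peak of score 48 that shared 16 bp with an H3K27ac peak. A last one, an RMER17A2 peak of score 35 in intron 2 of Aldh1a1, a retinaldehyde dehydrogenase gene, shared 34 bp. The gene listed for it was the noncoding C730002L08Rik.

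Scores of LTR peaks were low and repeated. Their median was 27 with quartiles of 27 and 34, against 27, 26 and 34 in the other 15245 Foxp4 peaks. The 6 recurrent values 21, 27, 34, 41, 49 and 57, each held by far more peaks than the values beside it, made up 81.6% of the LTR peaks (1314, interval 79.6 to 83.4%). Over all Foxp4 peaks they made up 73.1%, over LINE peaks 84.9%, over SINE peaks 74.9% and over intron and intergenic peaks outside repeats 73.5%. A score of 27 alone was held by 519 LTR peaks (32.2%) and by 27.7% of the other peaks. Scores above 57 were held by 10 LTR peaks (0.621%, interval 0.298 to 1.14%) and by 152 of the others (0.997%, 0.845 to 1.17%).

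**Figure D4:**
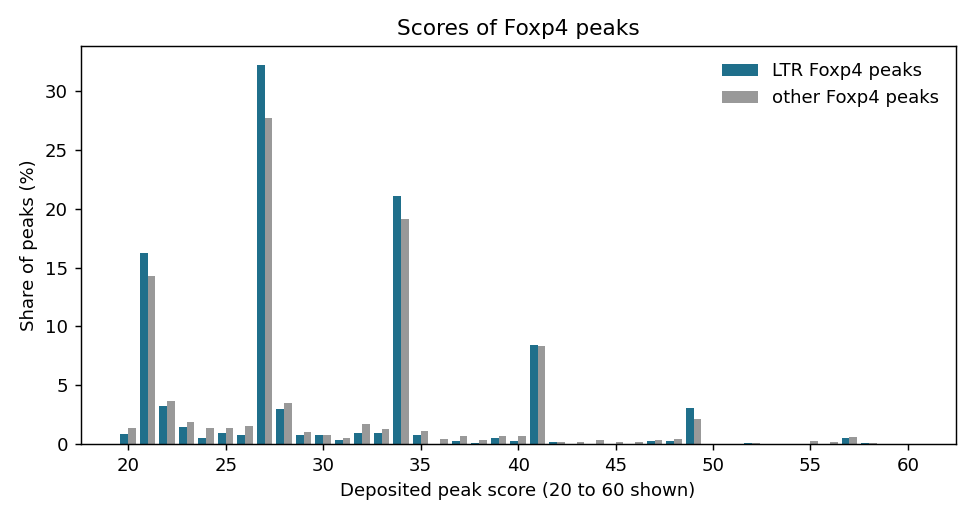
Share of LTR Foxp4 peaks (blue, 1611) and of other Foxp4 peaks (grey, 15245) at each deposited score from 20 to 60, in percent. Both rise at the 6 recurrent scores, of which 27 held 32.2% of LTR and 27.7% of other peaks.

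Overlap with H3K27ac went with the score in LTR peaks and in the other classes. Of the 704 LTR peaks that scored above 27, 30 overlapped (4.26%, interval 2.89 to 6.03%), and of the 907 at 27 or below, 6 did (0.662%, 0.243 to 1.43%). The same split gave 9.88% and 3.99% for intron and intergenic peaks outside repeats. For SINE peaks it gave 5.50% and 1.90%, and for LINE peaks 1.45% and 0.441%. At scores other than the recurrent ones 15 of 297 LTR peaks overlapped (5.05%, interval 2.85 to 8.19%), and at recurrent scores 21 of 1314 (1.60%, 0.992 to 2.43%). Peaks outside repeats had 15.4% at other scores and 3.55% at recurrent scores. SINE peaks had 8.36% and 1.79%, and LINE peaks 3.04% and 0.480%. The median score of the 36 overlapping LTR peaks was 34, against 27 for the 1575 without overlap, and the median width 420.5 bp against 343 bp. A wider peak meets another more easily, and the part of width in the overlap was not tested.

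The highest-scoring LTR peak, at 130, lay in RLTR44-int at chromosome 10, 120278474 to 120279238. Its nearest start was that of Llph, 51796 bp away, and no H3K27ac peak lay closer than 76886 bp. After the RLTR33 peak of score 88 came an RLTR18 peak of score 78, 28950 bp upstream of Creb3l1, a transcription factor gene of the endoplasmic reticulum stress response, with H3K27ac 2408 bp away. An RMER12B peak of score 75 stood 7273 bp upstream of Rn4.5s. MLT2B2 gave a peak of score 72 nearest to Spef2, and IAPEY3-int one of score 68 nearest to Macc1, 1711395 bp from any H3K27ac peak. The peaks of score 66 were an LTR40c nearest to the kinase gene Pim3 and an MLT1D upstream of the pacemaker channel gene Hcn4, and an RLTR14-int peak in intron 2 of Nxpe5 had a score of 58. Of the 10 highest, 8 lay in ERVK or ERVL elements, families that held 31.4% and 13.5% of all LTR peaks. Pooling these families was not planned. Overlap with H3K27ac was found for 2 of the 10, at Gm14496 and Mbp, against 2.23% of all LTR peaks. A list of 10 is too short to compare such shares.

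Distances to genes are those of the deposited annotation, which lists a nearest transcription start site (TSS) from its own gene set and leaves out the 5 noncoding RNA starts described above. The median distance to that TSS was 41691 bp, against 65622 bp for LINE peaks, 21014 bp for SINE peaks and 31624 bp for intron and intergenic peaks outside repeats. Within 10 kb of a TSS lay 288 LTR peaks (17.9%, interval 16.0 to 19.8%), and 23.3% of all intron and intergenic Foxp4 peaks. Introns held 503 of the 1611 (31.2%, interval 29.0 to 33.5%), against 34.3% of LINE, 55.1% of SINE and 54.3% of the peaks outside repeats. Among intergenic peaks alone the median distance was 47357 bp for LTR and 48931 bp outside repeats, and among intron peaks 30717 bp and 22058 bp.

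**Figure D5:**
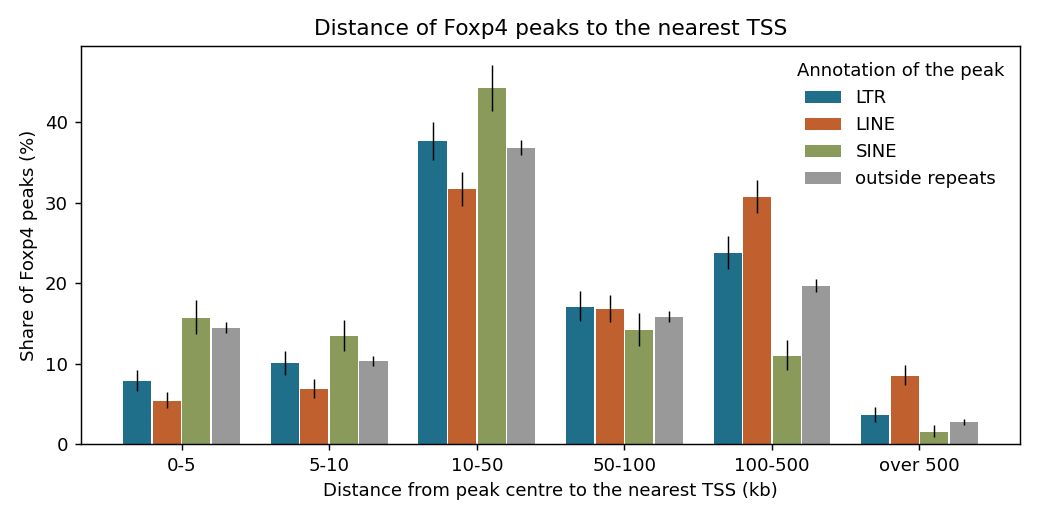
Share of Foxp4 peaks (percent) by distance from the peak centre to the nearest TSS in kb, for LTR, LINE, SINE and intron and intergenic peaks outside repeats, with exact 95% intervals. At most 5 kb from a TSS lay 7.82% of LTR peaks, between LINE (5.41%) and SINE (15.7%), and 23.8% lay 100 to 500 kb away, between SINE (11.0%) and LINE (30.7%).

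Few LTR peaks came close to a listed TSS. The annotation gives peaks at promoters to the promoter class, whatever the repeat class. At most 5 kb from a TSS lay 7.82% of LTR, 5.41% of LINE and 15.7% of SINE peaks, and 14.5% of intron and intergenic peaks outside repeats. The cause of these differences was not tested. By the deposited distances the nearest LTR peak was an RMER17B peak of score 41 in intron 1 of Gm14295 (chromosome 2, 176798690 to 176798987), 238 bp downstream of the TSS. An MT2B2 peak of score 21 in intron 2 of Iqcc lay 939 bp downstream, with an H3K27ac peak 63 bp away. The next 8 lay upstream, between 1030 and 1201 bp, at Slc46a3, Intu, 1810018F18Rik, F830016B08Rik, Eef1e1, Nkiras2, Sar1a and Uchl3. Among these the MT2A peak of score 34 at Sar1a, which encodes a GTPase of vesicle export from the endoplasmic reticulum, lay in the intron of 1700022H01Rik and shared 540 bp with an H3K27ac peak of score 156 (chromosome 10, 61678771 to 61679484).

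The 1611 peaks were assigned to 1430 nearest genes, 1274 of them with a single LTR peak, 135 with 2, 17 with 3 and 4 with 4. The genes with 4 were 1700030C10Rik, Cln8, Gm4425 and 1700019E08Rik. Thrb was named from the 17 genes with 3 because ties were broken by the highest peak score. The 4 peaks nearest to Cln8 all lay in introns of Dlgap2, a gene of synaptic scaffolds. Of the 4 peaks nearest to 1700030C10Rik on chromosome 12, 3 were in MMERGLN-int elements, with scores of 34, 37 and 39. They lay 582768 to 690170 bp from its TSS, and the other peak lay 1061156 bp away. Thrb had the RMER2 peak described above, an ORR1A2-int peak of score 27 in intron 1 and an IAPEz-int peak of score 21. Of 50 adipocyte genes on a list written for this work, 3 (6.0%) were the nearest gene of an LTR peak, against 5.51% of the 20665 protein-coding genes of these chromosomes. They were Cd36, the fatty acid transporter, with an RMER16-int peak of score 41 at 59293 bp from the TSS, Zfp423, a preadipocyte transcription factor, with an MLT2B4 peak of score 41 at 30824 bp, and Pdk4, an inhibitory kinase of pyruvate dehydrogenase, with an MMERVK9E_I-int peak of score 49 at 27970 bp. None of these 3 peaks overlapped H3K27ac. Of 40 genes listed for roles in silencing retroelements, such as Trim28 and Setdb1, 0 had an LTR peak. A list of 40 is too short to set a count of 0 apart from the 5.51% of protein-coding genes. Peaks on chromosomes X and Y were not used, so any gene of either list lying there could not be counted. A Foxp4 peak of any kind was assigned to 30 of the 50 adipocyte genes (60%), to 16 of the 40 silencing genes (40%) and to 37.0% of the protein-coding genes.

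Some LTR peaks lay close together. Another LTR peak had its centre within 10 kb of 67 LTR peaks (4.16%, interval 3.24 to 5.25%), in 32 pairs and 1 group of 3, and in 8 of the pairs both peaks had the same repeat name. Whether the peaks of such a pair lay in a single insertion was not tested. For LINE peaks the share with another peak of their class so near was 3.88% (interval 3.07 to 4.83%), which overlaps that of LTR peaks, and for SINE peaks it was 1.84% (1.16 to 2.78%). A class with more peaks offers more neighbours, and there were 1611 LTR, 1961 LINE and 1193 SINE peaks. The part of class size in these shares was not tested. A neighbour of the same repeat name was found for 16 LTR peaks (0.993%). Counting any Foxp4 peak, 19.1% of LTR peaks had a neighbour within 10 kb, against 20.8% of all Foxp4 peaks. The share with an LTR neighbour was 6.99% in internal parts (interval 4.77 to 9.83%) and 3.13% in terminal repeats (2.21 to 4.29%). By family it was 6.88% in ERVL (interval 3.90 to 11.1%) and 6.13% in ERVK (4.20 to 8.58%). In ERV1 it was 4.67% (1.90 to 9.38%), and in ERVL-MaLR 1.92% (1.05 to 3.20%). The group of 3 lay near Mup5 on chromosome 4, where RLTR9A3A, ETnERV2-int and RMER16-int peaks of scores 30, 27 and 20 spanned 3916 bp. A pair of RMER12B peaks near Rn4.5s had scores of 75 and 23, and a pair of IAPEz-int peaks near Rev3l on chromosome 10 had scores of 27 and 41. By chromosome, LTR peaks made up between 7.28% (chromosome 18) and 11.3% (chromosome 12) of the Foxp4 peaks.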

How the data were processed

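Each deposited file lists the peaks of 1 library, with columns that HOMER's annotatePeaks.pl added for mm10, per the file headers. It gives a nearest TSS from the annotation's own gene set, which is not always the nearest RefSeq start, the signed distance to it in bp, and the repeat at the peak centre. The submitters' processing notes name Bowtie2, Picard, SAMtools, MACS2 and deepTools 3.3.0 with no settings. Every deposited score is whole, with a lowest value of 20, on a scale no header states, so the authors' scores were used only within a list. How peaks were thresholded, whether the input entered and how multi-mapping reads were treated is not given in the sources used here.

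Peaks on chromosomes 1 to 19 were used. Internal parts were repeat names with -int. Overlap meant at least 1 shared bp, and the gap ran between peak edges. A score was recurrent where 100 or more Foxp4 peaks had it and this was over 3 times the number at each adjoining score. Intervals are exact (Clopper-Pearson) 95% intervals. Overlap and interval code was tested on simulated data. Named peaks were the 10 highest-scoring, the 15 highest-scoring overlapping H3K27ac, the 10 nearest to a TSS, 3 repeat names in each of 4 families, the 5 genes with the most peaks, and members of 2 gene lists. Clusters, MMVL30-int, the letters of ORR1 and MT and the splits by score were picked once values had been seen. The members and lists were chosen with earlier results of these data known. Gene names and windows came from RefSeq GRCm38.p6, in which all 50 and 40 listed genes matched. Alternatives covered the higher-scoring 50% of the lists, recurrent scores, the overlap rule and the windows. Computation used matplotlib 3.10.9 and scipy 1.17.1 with pandas 2.3.3 and numpy 2.4.6 in Python 3.11.15.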

Additional observations from a re-analysis of the deposited data

Results flagged for a closer look

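Outside the chromosomes described above, 12 further Foxp4 peaks in LTR elements lay on chromosomes X and Y, of 81 Foxp4 peaks there (14.8%, exact interval 7.90 to 24.4%), 9 on X and 3 on Y. They are listed as signal in data that the report does not use, and 1 of them overlapped an H3K27ac peak.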

How the results depend on the processing

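No paired analysis was possible because each antibody had 1 library. Of 32 alternatives, 10 left the value inside the 95% interval of the full list and 22 moved it out. That interval was exact for shares and came from ranked values for medians. Stricter overlap rules, narrower windows and a shorter H3K27ac list could only lower a share, so the direction of those moves was fixed in advance. The cause of the other moves was not tested. An alternative's own interval was not weighed, and for ERVL-MaLR without the recurrent scores it was 37.1 to 48.6%, around the 45.3% of the full list. Without the recurrent scores, LTR peaks made up 6.55% of the list, 5.05% of them overlapped H3K27ac, 18.9% lay within 5 kb of it, 22.6% lay within 10 kb of a TSS, 42.8% were ERVL-MaLR, 23.2% internal and 2.02% clustered, with a median score of 28 and width of 351 bp. In the higher-scoring 50% of both lists the LTR share was 9.10%, 7.43% lay within 5 kb of H3K27ac and 2.09% were clustered. Ties at score 27 were broken there by position. With Foxp4 scores above 27 only, chosen after seeing the data, these were 8.97%, 15.3% and 1.70%, and 4.26% overlapped H3K27ac. The overlap share was 1.49% under a rule of 50% coverage of the Foxp4 peak, 1.55% by peak centre, and 1.06% against the higher-scoring 50% of the H3K27ac list. With narrower windows, 4.10% lay within 1 kb of H3K27ac, 7.82% within 5 kb of a TSS and 1.06% had an LTR peak within 2 kb. Depth is unknown, so a missing peak means only that none was called.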

Other observations

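Nearest genes of LTR peaks included zinc finger and chemoreceptor genes, kinds that were chosen after the genes were seen. The description of the nearest gene was a zinc finger protein for 31 LTR peaks (1.92%, interval 1.31 to 2.72%), against 1.84% of LINE, 0.922% of SINE and 1.34% of intron and intergenic peaks outside repeats. Olfactory receptor genes, expressed in the nose, were nearest to 12 LTR peaks (0.745%, interval 0.385 to 1.30%), 1.43% of LINE peaks, 0.0838% of SINE peaks and 0.340% of peaks outside repeats. Vomeronasal receptor genes were nearest to 8 LTR peaks (0.497%, interval 0.215 to 0.976%), 0.561% of LINE peaks, 0.168% of SINE peaks and 0.191% of peaks outside repeats. A predicted gene or RIKEN transcript was nearest to 18.3% of LTR peaks, 21.3% of LINE peaks, 11.6% of SINE peaks and 15.5% of peaks outside repeats.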
